A study of Capsicum annuum with 78 samples.

Results

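Among the 35884 genes counted in pepper leaves, 32 stood above mock after salicylic acid (SA), methyl jasmonate (JA) and abscisic acid (ABA) and changed little on average after ethephon (ET), and these 32 genes are described here. They were chosen by measured values. For each gene the level was log2(CPM + 1), where CPM is the read count per 1000000 counts of the library, and the difference from mock was the mean level of the 3 treated libraries minus that of the 3 mock libraries at the same hour. The mean of these differences over 1, 3, 6, 12 and 24 h had to be at least 0.5 with SA, JA and ABA and between -0.5 and 0.5 with ET, in genes with a mean of at least 1 CPM in the 18 mock libraries. The mean differences and the differences at single hours are therefore a description and carry no test. Leaves of 6-week-old plants of the cultivar Bukang were used throughout, and each library pooled leaves of 4 plants. The sprays were SA as its sodium salt at 5 mM, JA as methyl jasmonate at 100 μM, ET as ethephon at 5 mM, racemic ABA at 100 μM and, for mock, distilled water. Each group held 3 libraries, with mock alone also sampled at 0 h. Treatments were incubated apart from each other in the growth chamber, so treatment and incubation cannot be told apart, and nothing in the labels says that the same plants were followed over time.

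As worked out mainly in Arabidopsis, SA is the hormone of defence against pathogens that feed on living tissue, and it acts through the NPR family of receptors and coregulators. Jasmonates report wounding and chewing insects, and they release gene repressors of the JAZ family from transcription factors. ABA accumulates in drying leaves, closes stomata and frees SnRK2 kinases from their phosphatases. Ethephon breaks down inside plant tissue to ethylene, the gaseous hormone of ripening, leaf shedding and part of the defence response, which is read through EIN3-type transcription factors. Leaf cells integrate these signals, and a gene can respond to several of them. The identifiers of the count table come from the CM334 annotation, and 0 of 35884, the 32 members included, matched the RefSeq genes of pepper. The roles of the members are therefore not known here, leaf marker genes were not checked, no sequence is shown, and 4 members are given by identifier and the others by their rank, where rank 1 has the largest value of the smallest of the SA, JA and ABA mean differences.

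The libraries held between 4470356 and 8851726 counts, so that 3 counts corresponded to between 0.339 and 0.671 CPM. This floor covers counting error only. Replicates correlated across genes with a Pearson r of at least 0.986, and all 78 replicate pairs differed by more than counting noise (chi-square of at least 1.99 per degree of freedom). The largest such difference, 22.9, was found between JA libraries at 3 h. Over the 17566 genes that passed the mock minimum, the median mean difference was between 0.03 and 0.05 with each hormone. A lower level can mean fewer cells of a kind or less RNA per cell, which cannot be told apart in these leaves.

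Of the 17566 genes above the mock minimum, 230 had mean differences of at least 0.5 with all these hormones. With ET, 191 of the 230 also had a mean difference of at least 0.5 (83.0%) and 7 had one of -0.5 or below, which left the 32 members (13.9%). The limit of 150 genes was not reached, so no ranking entered the choice. Many members lay close to the thresholds. The smallest of the SA, JA and ABA mean differences was 0.5003 in the last member and 0.4989 in the first gene outside, and it was under 0.6 in 17 members. Another 48 genes lay between 0.4 and 0.5. With ET, the size of the mean difference reached 0.491 among members and began at 0.504 among the genes left out, of which 13 lay below 0.6. The count of members also depended on the hours used, as the rule gave 84 genes without the 6 h samples (23 of the members among them) and 21 without the 12 h samples (16 members). It gave 46 genes without replicate 3 of mock at 24 h, in which the mean level of the members was the highest of that group. The mock minimum alone left out 4 genes, the highest at 0.754 CPM, and the lowest member had 1.02 CPM.

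SA gave the largest of the mean differences in 17 of the 32 members, JA in 9 and ABA in 6. The median mean difference over the members was 0.90 with SA (range 0.50 to 3.46), 0.77 with JA (0.51 to 1.79) and 0.72 with ABA (0.50 to 1.66). It was 0.24 with ET (-0.49 to 0.44), where 24 members lay above 0 and 8 below. A mean difference of at least 1 was found in 13 members with SA, 9 with JA, 5 with ABA and 0 with ET. The member of rank 13 had the widest gap between hormones, with 3.46 for SA, 0.87 for JA, 0.65 for ABA and 0.30 for ET. All these comparisons share the mock libraries.

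**Figure D1:**
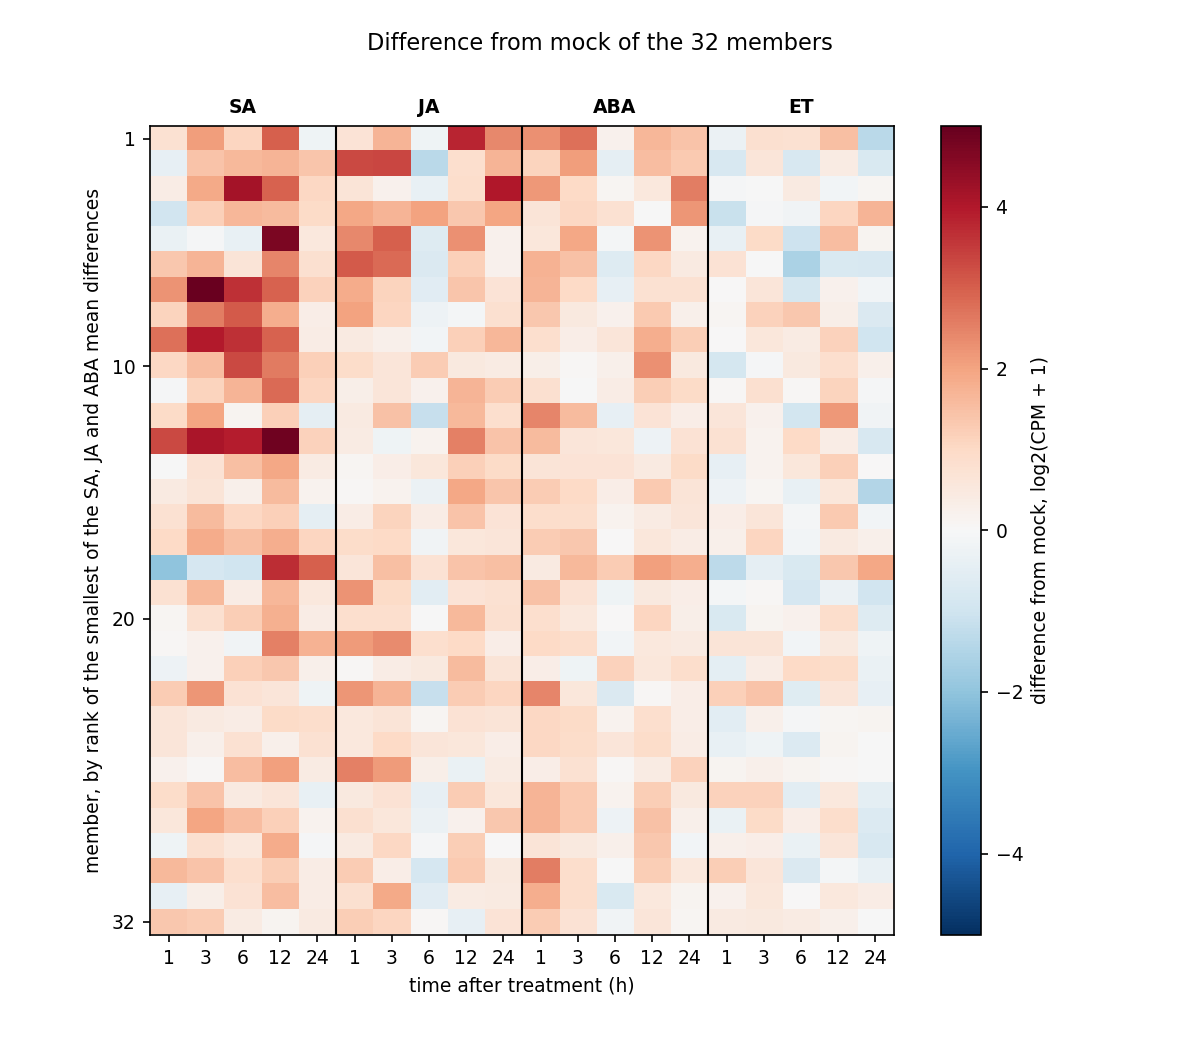
Difference from mock in log2(CPM + 1), as colour, for the 32 members (rows, by rank) at 1, 3, 6, 12 and 24 h after SA, JA, ABA and ET (columns), each the mean of 3 treated libraries minus the mean of 3 mock libraries. Red fills most cells of SA at 3 to 12 h, while the 6 h columns of JA (median -0.15) and ABA (median 0.13) are pale or blue.

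With SA, the median difference over the members was 0.61 at 1 h and 1.41 at 3 h, 1.05 at 6 h, largest at 12 h with 1.79, and 0.43 at 24 h. A difference of at least 1 was found in 9 members at 1 h (1.92% of all 17566 genes), in 20 at 3 h (4.91%), in 17 at 6 h (6.1%), in 27 at 12 h (9.3%) and in 9 at 24 h (2.4%). In 30 members the 3 SA libraries of 12 h lay above the 3 mock libraries (37.1% of all genes). JA had medians of 0.80 and 1.02 at 1 and 3 h, a median of -0.15 at 6 h, and 1.22 and 0.71 at 12 and 24 h. In all, 12 members stood at 1 or more at 1 h (2.56%), 17 at 3 h (2.43%), only 2 at 6 h (0.973%), then 19 at 12 h (4.51%) and 11 at 24 h (1.52%). At 6 h the 3 JA libraries lay above mock in 4 members (17.3%) and below it in 9 (15.7%). ABA had its largest median at 1 h, 1.18, and later medians of 0.87 at 3 and 12 h, 0.13 at 6 h and 0.48 at 24 h. A difference of 1 or more was held by 20 members at 1 h (3.48%), 10 at 3 h (1.57%), only 2 at 6 h (0.791%), then 15 at 12 h (4.04%) and 7 at 24 h (0.956%). At 6 h the 3 ABA libraries lay above mock in 2 members (11.6%) and below it in 5 (12.7%). These counts follow in part from how the members were chosen, by a mean over the hours, and are a description and not a result about them. The counts below mock at 6 h do not follow from a choice of genes raised on average.

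The hour of the largest difference was not the same for the 3 hormones. It fell at 12 h in 17 members with SA, in 13 with JA and in 8 with ABA, and at 1 h in 2, 7 and 16 members. The lowest difference fell at 6 h in 22 members with JA and in 22 with ABA, but in 5 with SA. The hours of the largest and lowest difference were not counted over all genes. Over all genes, a difference of at least 1 was also most frequent at 12 h with SA (9.3%), JA (4.51%) and ABA (4.04%). A peak at 12 h is therefore not shown to be particular to the members. Such a difference was also rarest over all genes at 6 h with JA (0.973%) and ABA (0.791%), so neither is a low at 6 h. A difference of at least 1 in all 3 hormones at the same hour was found in 10 members at 12 h (1.13% of all genes), in 6 at 1 h (0.313%) and 5 at 3 h (0.387%), in 3 at 24 h (0.256%) and in 0 at 6 h (0.148%). Over all hours, 18 of the 32 members had such an hour (1.67% of all genes) and 14 had none. These counts again follow in part from the choice of members, which set no value for a single hour. A member reached 1 or more in 1 to 11 of the 15 combinations of these hormones and hours, with a median of 6.

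**Figure D2:**
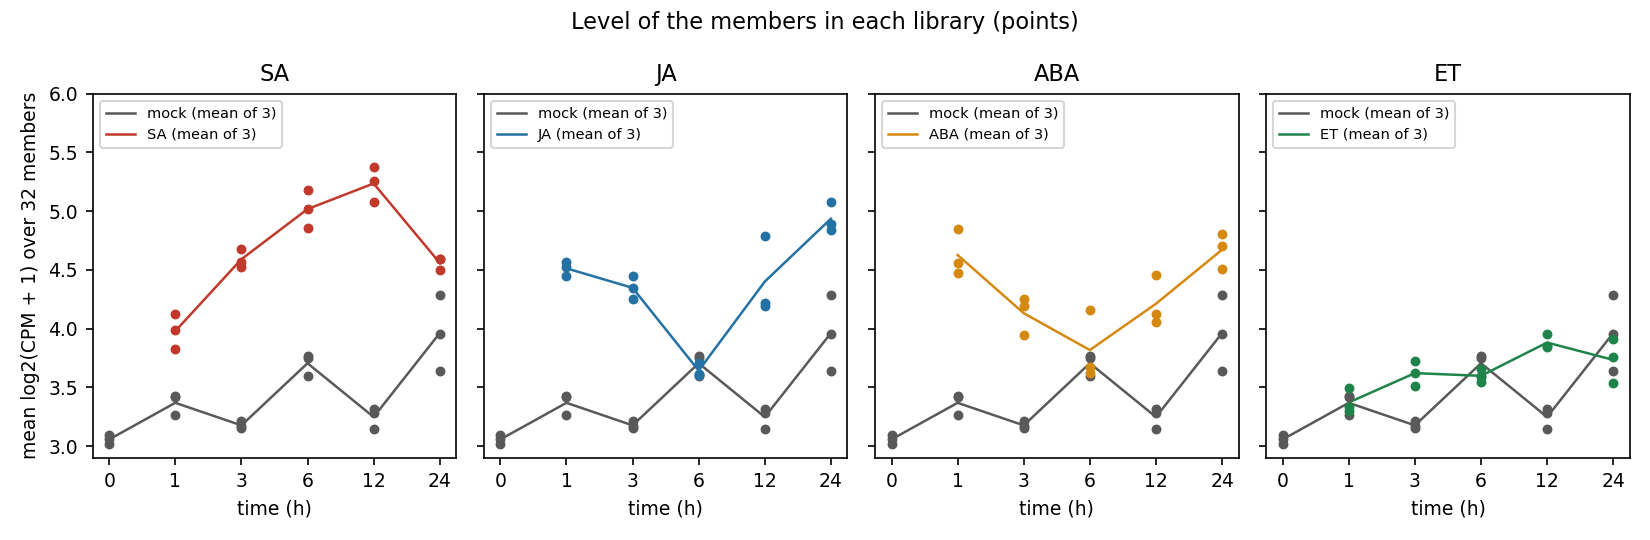
Mean log2(CPM + 1) over the 32 members in each library (points) and the group mean (lines) against time in h (evenly spaced, not to scale), with mock in grey in each panel. SA libraries lie above mock at all 5 hours, whereas at 6 h the JA libraries (3.61 to 3.71) lie among the mock libraries (3.59 to 3.77).

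Averaged over the 32 members, the level per library showed where groups overlapped. The SA libraries reached 5.07 to 5.38 at 12 h, against 3.15 to 3.32 in mock, and the JA libraries 4.84 to 5.08 at 24 h, against 3.64 to 4.29 in mock. At 6 h the level was 3.64 ± 0.06 after JA (SD, n = 3), 3.82 ± 0.30 after ABA, 3.598 ± 0.06 after ET and 3.70 ± 0.10 in mock, so these groups overlapped, whereas SA stood at 5.02 ± 0.16. One of the ABA libraries at 6 h lay at 4.16 and the other two at 3.62 and 3.67. One of the JA libraries at 12 h lay at 4.79 and the other two at 4.19 and 4.22. Mock itself moved, from 3.06 ± 0.04 at 0 h to 3.70 ± 0.10 at 6 h and 3.96 ± 0.32 at 24 h, with 3.25 ± 0.09 between them at 12 h. The ET libraries ranged from 3.29 to 3.95 over all hours and overlapped with mock at 1, 6 and 24 h, but not at 3 or 12 h.

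Whether a member's difference from mock was equal at all 5 hours was tested for each hormone with edgeR's quasi-likelihood test, adjusted by Benjamini and Hochberg over all genes fitted. The coefficients of this contrast are orthogonal to the mean over the hours on which the members were chosen. The fits used TMM scaling and no added 1, unlike the choice, so the test is not fully independent of it. All 32 members passed the filter on low counts in these fits. With SA, the difference varied in 29 of 32 members (46.4% of 18569 genes), with JA in 26 (28.4% of 18349 genes) and with ABA in 25 (31.2% of 18713 genes). ET varied with the hour in 27 of 32 members (51.1% of 18757 genes), although its mean over the hours was small by the choice of members. Of the 32 members, 22 passed with all 4 hormones (14.3% of 17984 genes), 2 with 3 of them, 6 with 2, 1 with a single hormone and 1 with none. In a fit of the SA, JA and ABA libraries alone, without mock, the time courses differed between the hormones in 31 of 32 members, against 54.9% of 19021 genes. Without replicate 1 in every group, the count with ABA was 15 (14.9% of all genes) in place of 25, and the other counts stayed within 1.5 times. The exception among the 3 time courses was the member of rank 25 (adjusted p = 0.065, edgeR).

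Early and late differences were set apart by a single contrast, the mean of 6, 12 and 24 h minus the mean of 1 and 3 h. With ABA, the difference was smaller late in 14 members (9.41% of all genes) and larger late in 4 (8.46%), with a median change of -0.63 on the log2 scale, against -0.02 over all genes. With JA, it was smaller late in 11 members (9.18%) and larger in 3 (9.13%), with a median change of -0.39, against 0.01 over all genes. The late mean includes 6 h, where the median difference was -0.15 with JA and 0.13 with ABA. The JA medians were 0.80 and 1.02 at 1 and 3 h, and 1.22 and 0.71 at 12 and 24 h. The ABA medians were 1.18 and 0.87 at 1 and 3 h, and 0.87 and 0.48 at 12 and 24 h. Late hours without 6 h were not tested. With SA, 11 members had smaller differences late (16%) and 10 had larger ones (14.5%). After ET, 11 were smaller late (17.9%) and 5 larger (16.9%). Rank 18, given after its values were seen, had a late gain with SA, from -2.01 at 1 h to 3.70 at 12 h (change 3.15 ± 0.28 SE, adjusted p = 2.9e-10, edgeR). Rank 5 passed too (adjusted p = 0.0024), but it was at 0 counts in 17 libraries, so its fitted size is not given. Each SE of a fitted change was derived from its test, as the size of the change divided by the square root of the F statistic.

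The return towards mock at 6 h was tested after it had been seen, as the difference at 6 h minus the mean of the other 4 hours. The coefficients of this contrast too are orthogonal to the mean used in the choice, with the same limit of unlike scales. With JA, 20 of 32 members were lower at 6 h (5.86% of all genes) and 1 was higher (5.07%), with a median change of -1.1497. With ABA, 17 were lower (5.82%) and 1 higher (6.2%), with a median of -0.80. ET had 9 lower (8.82%) and 3 higher (6.27%). With SA, 6 were lower (6.57%) and 9 higher (7.94%), with a median of 0.19, and the hormones were not tested against each other in this contrast. The 4 contrasts share the mock libraries of 6 h, in which the members were higher than at 1, 3 and 12 h. Over all genes too, a difference from mock of at least 1 was rarest at 6 h with JA (0.973%) and ABA (0.791%). The members were not compared with other genes raised by these hormones. The low at 6 h is therefore not shown to be particular to them. Without replicate 1 in every group, the counts fell to 8 members with ABA (8 lower, 0 higher), against 5.28% of all genes. They fell to 8 with SA (8.34%), 7 with ET (8.04%) and 17 with JA (7.28%). Without replicate 2 the count with JA was 14 (4.92%), of which 12 were among the 21 called in the full fit. Without replicate 3 the count with SA was 9 (7.14%). Without the ABA library of replicate 2 at 6 h, which stood apart, the count with ABA was 20 (19 lower, 1 higher), against 11.1% of all genes.

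**Figure D3:**
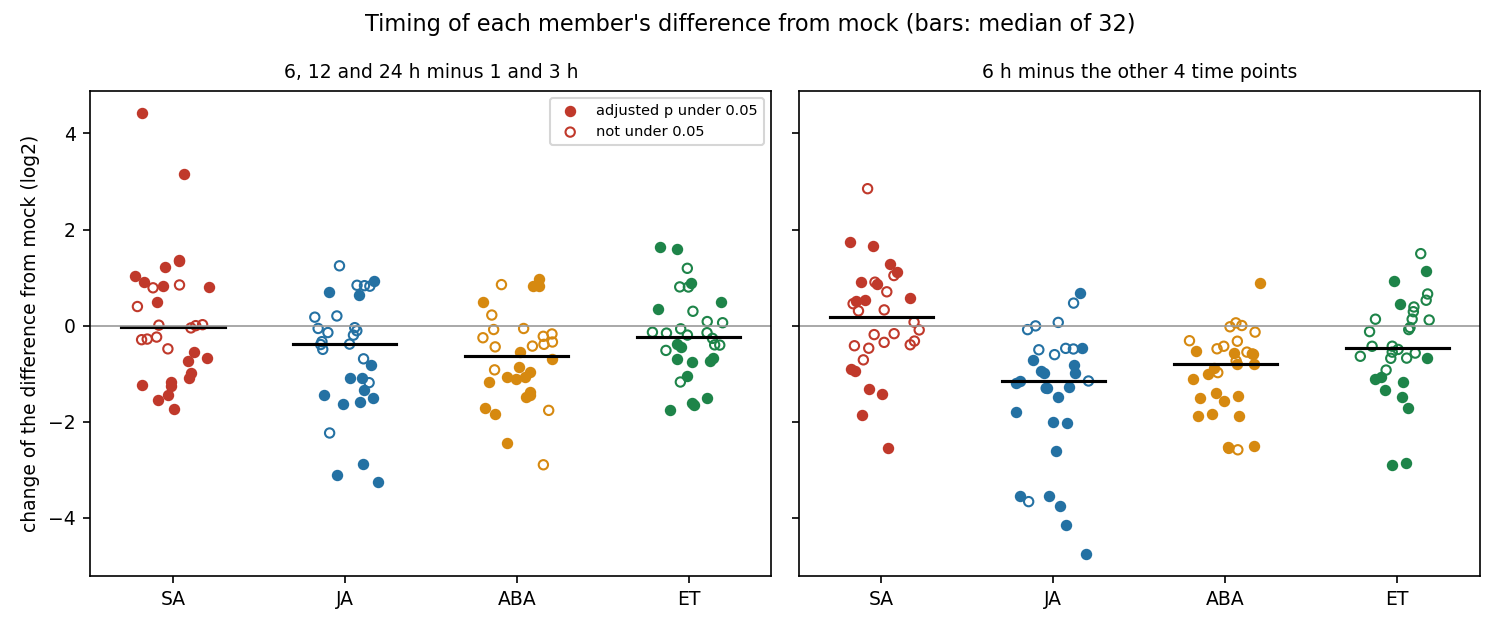
Change of each member's difference from mock (points, log2), late minus early hours on the left and 6 h minus the other hours on the right, for the 4 hormones. Filled points passed an adjusted p of 0.05 (edgeR), bars are medians over 32 members, and at 6 h the medians are -1.1497 with JA and -0.80 with ABA and 0.19 with SA.

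After ET, the median difference of the members was largest at 12 h (0.54) and 3 h (0.42), close to 0 at 1 h (0.02), and below 0 at 6 h (-0.10) and 24 h (-0.19). A difference of at least 1 was found at some hour in 14 members (16.7% of all genes) and one of -1 or less in 6 (16.2%), of which 4 had both (0.746%), while 16 members stayed between -1 and 1 throughout (67.8%). It was at least 1 in 3 members at 1 h (2.69% of all genes), 4 at 3 h (6.37%), a single member at 6 h (6.29%), then 9 at 12 h (11.1%) and 2 at 24 h (6.67%), and at 24 h 23 of 32 lay below 0. The 3 ET libraries lay above the 3 mock libraries in 9 members at 1 h (19.1%), 15 at 3 h (27.9%), 6 at 6 h (31%), 16 at 12 h (35.9%) and in 2 at 24 h (30.3%). They lay below mock in 9 members at 1 h (27.7%), in 1 each at 3 h (27%) and 12 h (28.5%), in 11 at 6 h (30.3%) and in 10 at 24 h (21.1%). These counts too follow in part from the choice of members by ET. The counts below mock at 1 h (9) and 6 h (11) are close to the shares over all genes. The count above mock at 6 h (6) is under its share over all genes. Rank 4 moved from -1.10 at 1 h to 1.71 at 24 h, and rank 18 from -1.32 to 1.94. Rank 12 stood at -0.92 at 6 h and 2.15 at 12 h. These members are given after their values were seen.

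CA.PGAv.1.6.scaffold1045.47 was the member of rank 1, with mean differences of 1.34 with SA, 1.68 with JA, 1.66 with ABA and 0.29 with ET. With a pseudocount of 5 in place of 1 these were 0.59, 1.07, 0.95 and -0.028. With one of 0.1 they were 2.06, 2.26, 2.33 and 0.75, and the value with ET then lay outside the limit of 0.5. Its level in mock was low until 12 h and high at 24 h. The mock libraries held 3.50, 5.56 and 2.902 CPM at 0 h, 1.498, 1.87 and 1.69 CPM at 1 h, and 0.649, 0.501 and 0.391 CPM at 3 h. They held 1.13, 1.24 and 1.44 CPM at 6 h, 0.129, 0.302 and 0.273 CPM at 12 h (1 to 2 counts each) and 53.1, 23.3 and 75.2 CPM at 24 h. The 24 h libraries thus stood apart from all others in mock, and its mock level varied over the hours from 1 to 24 h (adjusted p = 4.7e-16, edgeR). After JA it had 3.66, 2.19 and 4.38 CPM at 1 h, 4.503, 3.87 and 3.57 CPM at 3 h, and 0.786, 1.31 and 0.787 CPM at 6 h. At 12 h the JA libraries held 9.60, 59.7 and 6.99 CPM, so that 1 library was far above the other two, and at 24 h they held 230.0, 281 and 222 CPM. All JA libraries of 1, 3, 12 and 24 h lay above their mock libraries, and those of 6 h overlapped with them. After ABA it had 9.48, 11.9 and 15.1 CPM at 1 h, 12.7, 5.01 and 12.2 CPM at 3 h, and 0.979, 2.35 and 1.77 CPM at 6 h. The ABA libraries of 12 h held 2.60, 3.62 and 2.44 CPM and those of 24 h 173, 104 and 104 CPM, so ABA too overlapped with mock at 6 h alone. SA gave 3.03, 4.69 and 3.11 CPM at 1 h, 4.94, 4.37 and 7.24 CPM at 3 h, 4.08, 3.32 and 4.002 CPM at 6 h and 9.74, 7.44 and 9.07 CPM at 12 h. At 24 h the SA libraries, with 37.4, 38.0 and 43.6 CPM, lay within the mock range. ET gave 1.27, 0.932 and 1.47 CPM at 1 h, 1.62, 0.948 and 2.70 CPM at 3 h, 3.39, 3.61 and 1.79 CPM at 6 h and 3.06, 2.06 and 2.49 CPM at 12 h. At 24 h it had 29.5, 15.5 and 11.2 CPM after ET, a difference of -1.34, with 1 library inside the mock range. The 6 h contrast passed with JA (-3.55 ± 1.12 SE, adjusted p = 0.037, edgeR) and ABA (-2.51 ± 0.75 SE, adjusted p = 0.023). Both calls were lost without replicate 1 and without replicate 3 in every group, where the adjusted p lay between 0.13 and 0.17. The call with JA was also lost without the JA library of replicate 1 at 3 h (adjusted p = 0.053).

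CA.PGAv.1.6.scaffold567.88, of rank 2, had mean differences of 1.14 with SA, 1.57 with JA, 1.12 with ABA and -0.27 with ET. Mock held 1.498, 1.67 and 1.66 CPM at 0 h, 4.49, 4.84 and 4.21 CPM at 1 h, and 3.73, 6.18 and 3.13 CPM at 3 h. Mock then held 24.96, 28.3 and 34.2 CPM at 6 h, 12.3, 9.21 and 37.0 CPM at 12 h and 8.26, 3.85 and 13.1 CPM at 24 h. Its mock level was thus highest at 6 h, with 1 library of 12 h as high. After JA it had 50.8, 59.6 and 51.8 CPM at 1 h and 52.1, 53.2 and 49.6 CPM at 3 h, far above every mock library of those hours. At 6 h the JA libraries held 14.45, 9.52 and 8.98 CPM and lay below all mock libraries, at 12 h they held 21.9, 57.5 and 21.5 CPM and at 24 h 33.1, 23.7 and 24.1 CPM. The late minus early change with JA was -3.25 ± 0.35 SE (adjusted p = 3.6e-08, edgeR), and the 6 h contrast was -3.75 ± 0.40 SE (adjusted p = 4.7e-08). SA followed another course, with 3.87, 3.65 and 2.13 CPM at 1 h, 8.29, 15.04 and 17.1 CPM at 3 h, and 113, 63.1 and 106 CPM at 6 h. The SA libraries lay above mock at 3, 6, 12 and 24 h and below it at 1 h. With ABA, 1 of the 3 libraries differed from the other two at 1 h (5.13 against 14.6 and 16.3 CPM), 6 h (48.3 against 17.3 and 10.4 CPM) and 24 h (54.7 against 13.98 and 10.96 CPM). ET gave 1.52, 2.02 and 3.31 CPM at 1 h and 13.3, 15.4 and 19.96 CPM at 6 h, below mock at both hours. The time courses of SA, JA and ABA differed (adjusted p = 5.9e-10, edgeR), and its difference from mock varied over the hours with JA (adjusted p = 1.8e-08). The test of equal differences did not pass with SA (adjusted p = 0.072), ABA (adjusted p = 0.079) or ET (adjusted p = 0.056). With SA it passed without replicate 3 (adjusted p = 0.018) and in the fit with a replicate block (adjusted p = 0.021). SA also passed with DESeq2 (adjusted p = 0.021). ABA passed without replicate 2 (adjusted p = 0.024) and without the ABA library of replicate 2 at 6 h (adjusted p = 0.0094). ET passed without replicate 2 (adjusted p = 0.029) and without replicate 3 (adjusted p = 0.0014). ET passed in the block fit too (adjusted p = 0.027). Each of these hormones passed without the filter on low counts, and none without replicate 1.

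CA.PGAv.1.6.scaffold134.113, of rank 6, and CA.PGAv.1.6.scaffold707.3, of rank 15, had the lowest differences of all members at a single hour after ET. The first had a mean difference with ET of -0.491, close to the limit of -0.5. With TMM scaling (-0.540) and a pseudocount of 0.1 (-0.515) it lay outside the limit, and with a pseudocount of 5 inside it (-0.408). The same gene stood at -1.59 at 6 h after ET. There the ET libraries held 10.3, 10.8 and 9.85 CPM against 37.4, 26.5 and 36.7 CPM in mock, without overlap. Over the 5 hours the ET libraries stayed between 4.99 and 16.1 CPM, while mock went from 5.06 to 37.4 CPM, and with JA the gene reached 64.1, 65.9 and 61.1 CPM at 1 h and 102, 89.5 and 66.1 CPM at 3 h. SA was highest at 12 h, with 148, 139.9 and 139.6 CPM against 22.6, 33.7 and 22.4 CPM in mock. The difference was smaller late than early with JA (-2.88 ± 0.19 SE, adjusted p = 1e-12, edgeR) and with ABA (-1.48 ± 0.29 SE, adjusted p = 0.00046). With SA the change was -0.48 ± 0.21 SE and did not pass (adjusted p = 0.08), except without replicate 2 (adjusted p = 0.031).

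The gene of rank 15 was, as was that of rank 1, highest at 24 h in mock. It had 2.83 to 4.55 CPM in every mock library from 1 to 12 h and 24.5, 18.3 and 25.2 CPM at 24 h. At that hour the ET libraries held 10.2, 6.38 and 6.20 CPM, a difference of -1.48 and below all mock libraries. JA instead gave 57.7, 66.5 and 56.3 CPM and ABA 39.2, 33.1 and 33.9 CPM, above all mock libraries, while SA, at 30.2, 21.6 and 25.01 CPM, overlapped with mock. The ET values of both genes chose them for this account and are given with no test. The difference of rank 15 varied with the hour with JA (adjusted p = 0.00014, edgeR), SA (adjusted p = 0.00024) and ABA (adjusted p = 0.029). The call with ABA was lost without each replicate number in turn (adjusted p from 0.095 to 0.27). The larger late difference with JA (0.93 ± 0.30 SE, adjusted p = 0.031) did not pass in any fit that left out a replicate number or the JA library of replicate 1 at 3 h (adjusted p from 0.059 to 0.14).

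**Figure D4:**
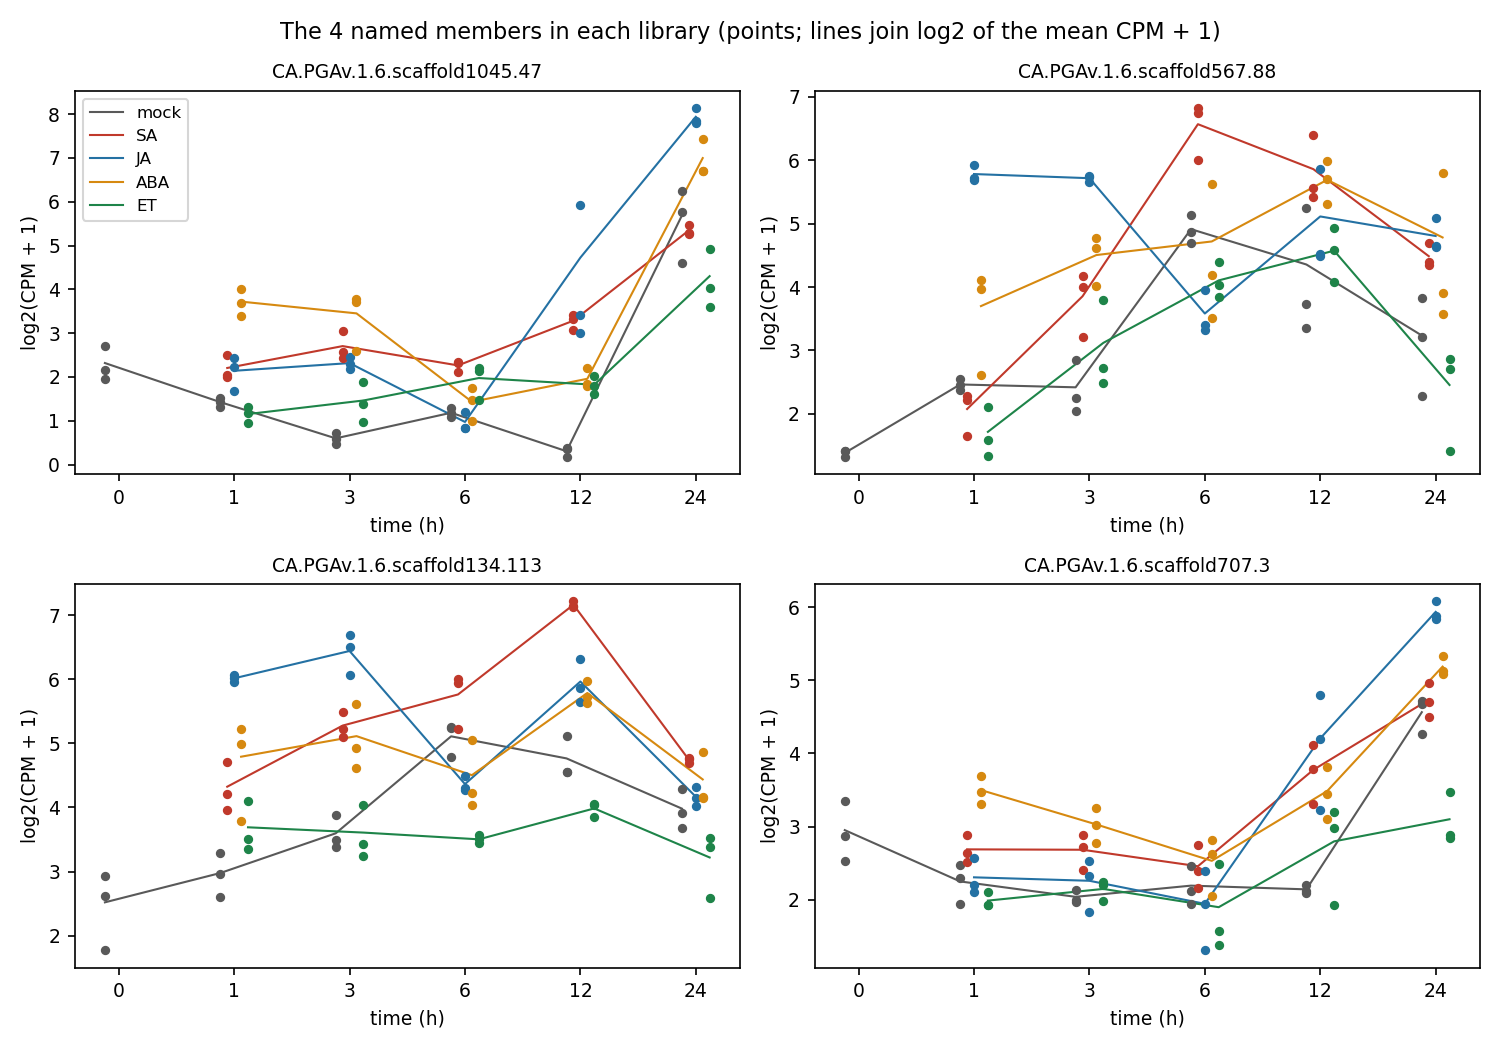
log2(CPM + 1) against time in h (evenly spaced, not to scale) for the 4 members named here, with a point for each of 78 libraries and lines through log2 of the group mean CPM + 1. CA.PGAv.1.6.scaffold1045.47 and CA.PGAv.1.6.scaffold707.3 are highest at 24 h in mock, and the ET libraries of CA.PGAv.1.6.scaffold134.113 at 6 h (9.85 to 10.8 CPM) lie below mock (26.5 to 37.4 CPM).

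The other 28 members differed in which hormone and hour carried the difference. Ranks 7, 9 and 13 had the largest mean differences with SA and stood at 4.94, 3.98 and 4.07 at 3 h, and rank 13 at 4.86 at 12 h. Rank 5 was close to mock at 1, 3 and 6 h after SA (-0.34, -0.07 and -0.38) and stood at 4.69 at 12 h, but it had 0 counts in 17 of the 78 libraries. Rank 3, at 0 counts in 11 libraries, stood at 4.16 at 6 h after SA and at 4.0 at 24 h after JA. Ranks 8 and 10 were the most abundant in mock, with 185 and 249 CPM, and their largest differences, 3.08 and 3.29, fell at 6 h after SA. Rank 4 did not come near mock at 6 h after JA, at 1.95, 1.69, 2.0, 1.35 and 1.96 over the 5 hours, and its JA differences did not pass the test of unequal size (adjusted p = 0.43, edgeR). Ranks 23, 27 and 30 stood at 1.14 to 1.24 at 1 h after ET and at -0.71 to -0.52 at 6 h.

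Counting depth varied among the members. Mean mock levels ran from 1.02 to 249 CPM with a median of 9.34 CPM, 12 members lay under 5 CPM, and 18 members had at least 10 counts in every library. A count of 0 in at least 1 library was found in 4 members. Since 1 is added before the logarithm, the difference of a member with a low level is understated.

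Mock levels alone varied between 1 and 24 h in 28 of the 30 members that passed the filter in a fit of the mock libraries, against 71.6% of 17788 genes (edgeR). The highest mock level fell at 24 h in 13 of the 32 members and at 6 h in 12, and the lowest at 0 h in 12 and at 12 h in 8. These hours were not counted over all genes, so they are not shown to be particular to the members. Relative to its own mean over mock, the median member stood at 0.33 at 6 h and 0.28 at 24 h, while the median of all 17566 genes stood at 0.12 and -0.15. The same mock libraries served as the control of every hormone.

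When the rule was applied to 2 replicate numbers, the mean differences could be read in the libraries it had not used. Leaving out replicate 1, 2 or 3 gave 34, 27 and 58 genes, of which 25, 18 and 26 were members. In the libraries of the replicate left out, all of SA, JA and ABA lay above 0 in 34 of 34, 27 of 27 and 49 of 58 of these genes. All conditions of the rule on the 4 hormones were met again by 17, 13 and 9 of them. How often genes in general met these conditions in the same libraries was not counted, so these counts have no share to be set against. The median held-out difference was 1.17, 1.1496 and 0.71 with SA, 0.77, 0.92 and 0.48 with JA, 0.84, 0.91 and 0.48 with ABA and 0.28, 0.17 and 0.07 with ET. These medians were lowest with replicate 3 left out. Each list holds other genes, so an effect of the list and of the libraries cannot be told apart.

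The identifiers place the 32 members on 32 scaffolds. No member shared a scaffold with another, so 0 of them carried neighbouring identifiers.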

How the data were processed

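Gene expression was measured by strand-specific RNA-seq of poly(A) RNA from pepper leaves in 78 libraries, 3 for each of 26 groups of treatment and hour. Per the labels and methods, the authors trimmed reads (cutadapt 1.15, Trimmomatic 0.38), checked their quality (FastQC 0.11.8), used HISAT2 (version not given in the sources used here) for alignment against version 1.6 of the CM334 genome and deposited read counts per gene from HTSeq 0.11.2. The plants were of another cultivar than the genome, and reads of near-identical gene copies or overlapping genes could not be checked.

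Counts were scaled to CPM by column totals (4470356 to 8851726, median 6618439) for the rule given in the report, with 1 added before the logarithm. Contrasts were fitted with edgeR 4.0.16 (filterByExpr, TMM, quasi-likelihood, R 4.3.3) on each hormone with mock, with p-values adjusted over all genes by Benjamini and Hochberg and a threshold of 0.05. DESeq2 1.42.0 was an alternative. The edgeR fits were tested on simulated counts with log2 changes of 2 in well-counted genes. The 6 h contrast and changes in genes with few counts were not simulated. The members and tests were chosen with earlier results of these data known, and the 6 h contrast after its values were seen. Named were the 2 members with the largest smallest mean difference and the 2 of the rest with the lowest difference at an hour after ET. In all, 0 of 35884 identifiers were found in the gene table (assembly UCD10Xv1.1). The labels do not say whether replicate numbers pair libraries, and the main fits did not pair them. Same-numbered deviations of hormone and mock correlated between -0.22 and 0.21, which cannot show that the design was unpaired. Groups came from the labels, and 0 columns lacked a sample.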

Additional observations from a re-analysis of the deposited data

Results flagged for a closer look

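Differences from mock were not the same at the 5 hours in most members, by a direct test of the hours against each other (edgeR). This was the case in 29 of 32 members with SA (46.4% of all genes tested) and 26 with JA (28.4%). It was the case in 25 with ABA (31.2%) and 27 with ET (51.1%). Without mock libraries, the time course differed between SA, JA and ABA in 31 of 32 members (54.9% of all genes tested).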

How the results depend on the processing

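The number of genes that met the rule depended on the settings. It was 49 with a pseudocount of 0.1 (25 of the members), 18 with a pseudocount of 5 (12), 15 with a mock minimum of 10 CPM (15), 27 to 58 without a replicate, 84 without 6 h (23), 21 without 12 h (16) and 24 with TMM scaling (20). The median mean difference with SA was 1.13 and 0.63 with pseudocounts of 0.1 and 5, 1.11 without 1 h and 1.07 without 24 h. That with JA was 0.53 with a pseudocount of 5 and 0.95 without 6 h, that with ABA 0.54 with a pseudocount of 5, and that with ET 0.080 without 12 h. The counts of members called stayed within 1.5 times with RLE scaling, DESeq2, no filter and the replicate block. In the block fit, late minus early was called in 21 members with SA (30.5% of all genes) and 14 with JA (18.0%). It was called there in 18 with ABA (19.2%) and 16 with ET (35.7%). Leaving out a replicate or a library gave 8 to 16 members for 6 h with SA (7.14% to 15.1% of all genes). The same contrast gave 14 to 22 with JA (4.92% to 13.2%) and 8 to 20 with ABA (5.28% to 13.9%). With ET it gave 7 to 12 (8.04% to 15.6%). The test of unequal hours with ABA gave 15 to 26 (14.9% to 32.6%). Some small values changed sign. For CA.PGAv.1.6.scaffold1045.47, the mean ET difference was -0.028 with a pseudocount of 5, and without a replicate the late minus early value lay between -0.63 and 0.048 with SA and between -0.095 and 0.99 with ET. Without a replicate, CA.PGAv.1.6.scaffold707.3 had -0.31 to 0.20 for late minus early with SA and -0.76 to 0.37 for 6 h with ET, and CA.PGAv.1.6.scaffold567.88 had -1.04 to 0.57 for late minus early with ET. The cause of these changes was not tested. At 3 counts per library, levels under 0.339 to 0.671 CPM could not be resolved.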
